A study of Mus musculus with 16 samples.

Results

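The transcripts of 10 heat shock proteins and chaperones were followed across 4 conditions of mouse endothelial cells. All probe sets annotated to Hspa1a, Hspa1b, Hspa8, Hsp90aa1, Hspb1, Hspd1, Hspe1, Hsph1, Dnajb1 or Hspa5 were taken, which gave 13 probe sets, 12 on the MG_U74Av2 chip (chip A) and 1 on the MG_U74Bv2 chip (chip B), for 10 of the 13675 genes with a symbol on the arrays. Of these, 10 probe sets for 9 genes were bright enough to be tested, with the mean of at least 1 condition above the median of the chip, and 3 were not. The cells were endothelial lines grown out of murine embryonic stem cells whose VE-cadherin (VEC) gene, Cdh5, carried a homozygous null mutation, and this origin was given for both lines. The 4 conditions were confluent VEC-positive cells, confluent VEC-null cells, sparse VEC-positive cells and sparse VEC-null cells, all starved for 36 h in MCDB 131 medium with albumin before lysis. How the VEC-positive cells came to carry VEC, and how many clones each line stands for, was not given in the sources used here. Labelled cRNA was made from 15 µg of total RNA, and each cRNA sample was put on 2 copies of each chip, 16 arrays in all. The 2 copies of a condition are therefore technical, and every error, standard error and p-value given here measures the spread between hybridisations, not between cultures.

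Heat shock proteins are chaperones, which bind unfolded or newly made proteins and keep them from clumping until they fold. HSP70 proteins work by cycles of binding and release that J-domain partners start and nucleotide exchange factors end, HSP90 takes over clients late in folding, and chaperonins enclose them in a chamber. Under heat or other stress of the cytosol, the factor HSF1 binds heat shock elements, which are alternating GAA and TTC units, in the promoters of the inducible genes. Stress in the endoplasmic reticulum acts through another branch, in which ATF6 and XBP1 raise chaperones of that compartment through the endoplasmic reticulum stress element. In endothelium, VEC joins neighbouring cells at adherens junctions and takes part in the arrest of growth at confluence.

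Levels are MAS5 signals, Affymetrix's linear summary of the probe pairs of a probe set, and changes are differences of log2(signal + 50). The copies of a condition correlated at 0.984 to 0.989 on chip A and at 0.951 to 0.974 on chip B (Pearson's r of log2 signals over all probe sets), against 0.915 to 0.957 and 0.880 to 0.933 between conditions. Arrays of confluent VEC-positive cells had the lowest signals of the 3′ Gapdh control probe set on chip A, 12788 and 12920 against 16729 to 21421 on the other arrays. The 3′ actin control was lowest there as well, at 19212 and 19634 against 23086 to 30459. On chip B the same held for Gapdh (28590 and 29270 against 36572 to 55583) and actin (39700 and 44001 against 58107 to 69054). The 3′ to 5′ ratios of the controls, a measure of RNA length, also set that condition apart in part. On chip A the Gapdh ratio was 0.968 to 1.01 in confluent VEC-positive cells, against 0.903 to 0.987 elsewhere, and the actin ratio 1.26 to 1.33 against 1.11 to 1.25. On chip B the Gapdh ratio was 1.14 to 1.23 against 0.910 to 1.00, and the actin ratios overlapped. The part of these in the values below was not tested. The probe set of Cdh5 gave 2607 and 2526 in confluent VEC-positive cells, against 2707 and 2509 in confluent VEC-null cells. In sparse cells it gave 1464 and 1334 for the VEC-positive line, against 1255 and 1282 for the VEC-null line. Where its probes lie relative to the null mutation was not determined, so it does not check the line labels, and the lines are named here as labelled. All 10 endothelial markers looked for were bright enough to be tested in at least 1 condition, but not all were bright. Pecam1 lay near the filter, with condition means of 158 and 118 in confluent and sparse VEC-positive cells. In confluent and sparse VEC-null cells its means were 169 and 181. Cldn5 and Vwf averaged 5115 and 2516 in confluent VEC-positive cells and at most 50.5 and 42.1 in the other 3 conditions (bright Vwf probe set). The pan-leukocyte marker Ptprc and the integrin gene Itgam did not exceed 20.4 and 34.1 on any array, and the stem cell genes Pou5f1 and Nanog were not above the filter. Other genes of the same lists were above it. Condition means ran from 305 to 407 for Cdh1 and from 211 to 289 for Fgf4, and Krt19 and Cd68 passed the filter as well, with Cd68 at 910 in confluent VEC-null cells.

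Density was the comparison in which these genes moved most. Of the 10 tested probe sets, 3 fell in confluent against sparse VEC-positive cells and 0 rose, where "fell" and "rose" stand for an adjusted p below 0.05 and a log2 change of at least 1 in limma. Over all 14246 probe sets tested, 15.4% passed in this comparison in either direction and 7.22% passed as lower. In VEC-null cells, 6 of the 10 fell with confluence and 0 rose, against 16.5% of all probe sets that passed in either direction and 7.41% that passed as lower. By the adjusted p alone, 9 of 10 were lower and 1 was higher in confluent VEC-positive cells, where 23.1% of all probe sets were lower by that rule. In VEC-null cells 8 of 10 were lower by it, against 23.5% of all. The median log2 change over the 10 was -0.86 in VEC-positive and -1.06 in VEC-null cells, while the medians over all probe sets tested were 0.02 and -0.0026. The 3 genes that fell in VEC-positive cells, Hspa1a, Hspa1b and Hspe1, were among the 6 that fell in VEC-null cells, which is 100% of the one list and 50% of the other. How far the falls of all probe sets overlapped between the lines was not counted, so no reading of this overlap is made.

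Fewer of them passed in the comparison of the lines. In this design VEC status cannot be told apart from other differences between the lines. In confluent cells, 2 of the 10 probe sets rose in VEC-positive against VEC-null cells and 0 fell, against 7.93% of all probe sets that passed in either direction and 4.31% that passed as higher. Both were inducible HSP70 genes, Hspa1a and Hspa1b. In sparse cells 0 of the 10 passed in limma, against 9.7% of all. By the limma p alone, 8 had an unadjusted p and 7 an adjusted p below 0.05, with changes smaller than the size threshold. The shares of all probe sets by p alone were not counted between the lines, so no reading of these counts is made. The median log2 change over the 10 was -0.28 in confluent and -0.32 in sparse cells, with medians over all probe sets of -0.03 in both. These comparisons share their samples with the density comparisons, so the values of each are given side by side and no likeness between them is drawn.

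The condition means of each tested gene's brightest probe set followed 2 orders. For 6 genes, Hspa8, Hsph1, Hsp90aa1, Hspd1, Hspe1 and Hspa5, sparse VEC-null cells were highest, then sparse VEC-positive cells, then confluent VEC-null cells, and confluent VEC-positive cells were lowest. For the other 3, Hspa1a, Hspa1b and Dnajb1, sparse VEC-positive cells were highest, then sparse VEC-null cells, then confluent VEC-positive cells, with confluent VEC-null cells lowest. The dim tested probe set of Hspd1 had another order, with confluent VEC-null cells highest and sparse VEC-positive cells lowest. Neighbours in these orders did not always differ, as the values of each gene show.

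**Figure D1:**
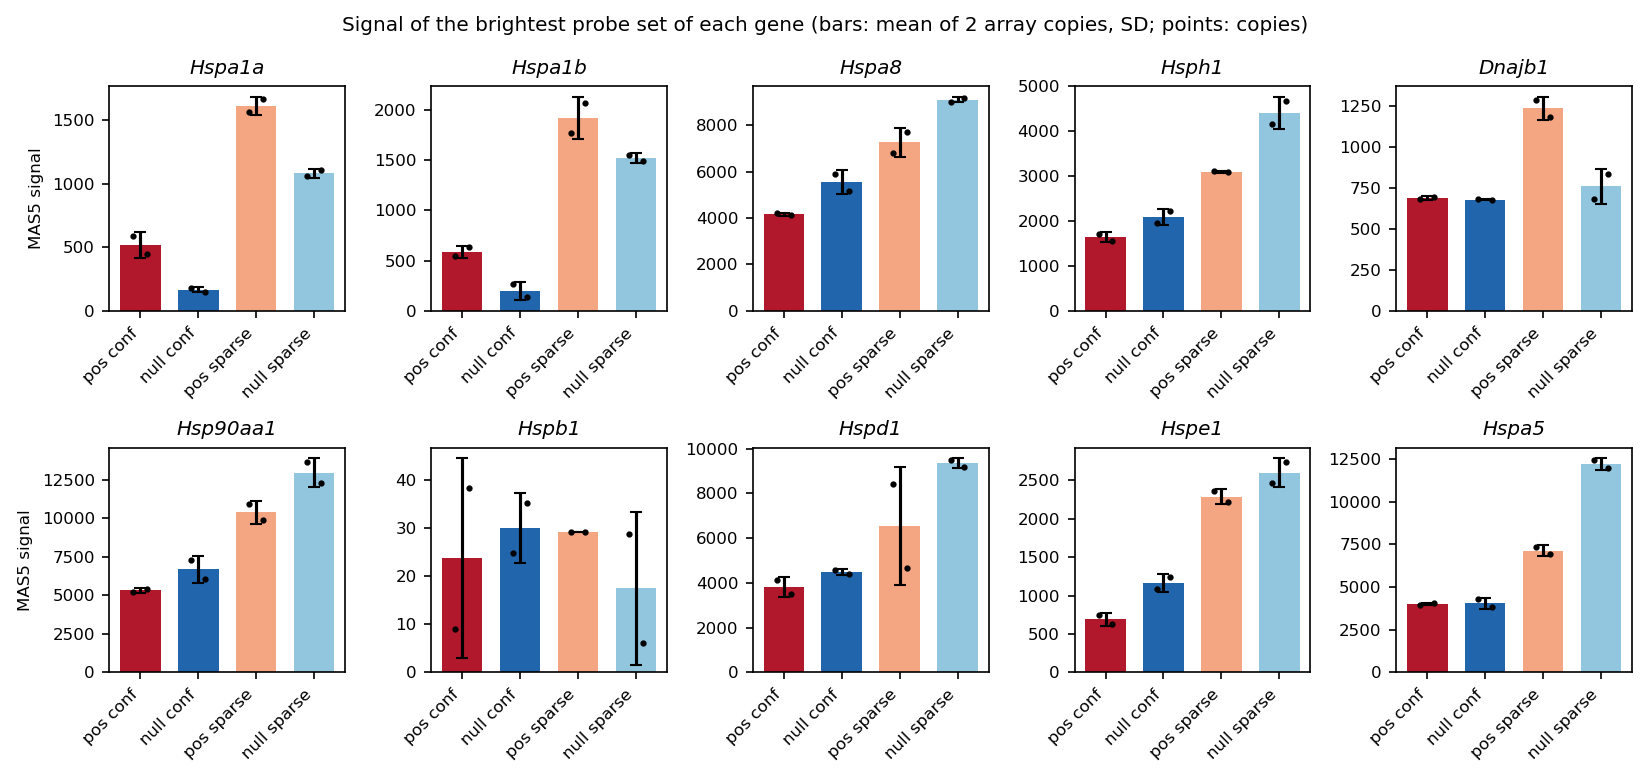
MAS5 signal of the brightest probe set of each of the 10 genes (vertical axes, linear, starting at 0 and scaled per gene) in confluent VEC-positive, confluent VEC-null, sparse VEC-positive and sparse VEC-null cells; bars are means of 2 array copies with their SD, and points are the copies. Every sparse copy lay above every confluent copy of the same line for all genes but Hspb1, closely so for Dnajb1 in VEC-null cells (686 against 683), and Hspb1 stayed between 6.2 and 38.5.

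Hspa1a and Hspa1b encode the stress-inducible cytosolic HSP70 and are neighbours on chromosome 17. Their promoter windows are shown because both genes carried the largest changes and moved together. The windows run from 250 bases before to 50 bases after the annotated start (RefSeq, GRCm38.p6), at chr17:34972107-34972406 for Hspa1a and chr17:34959189-34959488 for Hspa1b, both on the minus strand and printed 5′ to 3′ along the gene. Capitals mark matches to a heat shock element.
Hspa1a promoter: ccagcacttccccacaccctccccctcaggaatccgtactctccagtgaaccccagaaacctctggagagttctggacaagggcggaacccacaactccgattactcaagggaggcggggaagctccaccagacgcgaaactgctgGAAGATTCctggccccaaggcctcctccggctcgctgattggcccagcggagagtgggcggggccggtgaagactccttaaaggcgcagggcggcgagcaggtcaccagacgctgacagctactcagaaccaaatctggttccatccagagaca
Hspa1b promoter: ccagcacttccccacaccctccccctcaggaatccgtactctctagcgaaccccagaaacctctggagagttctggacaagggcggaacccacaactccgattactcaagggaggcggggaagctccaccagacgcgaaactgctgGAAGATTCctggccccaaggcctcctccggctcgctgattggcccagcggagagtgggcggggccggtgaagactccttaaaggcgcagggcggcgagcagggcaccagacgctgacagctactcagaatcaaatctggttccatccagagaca
The 2 windows were identical at 296 of 300 bases (98.7%), and each held 1 heat shock element of the form GAANNTTC, at -104 to -97 relative to the start. Neither window held TATAAA. Genes this alike can share probe targets, and cross-hybridisation between the 2 was not tested, so their separate values are uncertain as measures of the single genes.

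The Hspa1a probe set (93875_at) gave 587 and 445 in confluent VEC-positive cells, against 181 and 152 in confluent VEC-null cells. The sparse values were 1560 and 1661 in the VEC-positive line, against 1057 and 1105 in the VEC-null line. No 2 conditions overlapped, and sparse cells of both lines were above every confluent copy. Hspa1a rose in confluent VEC-positive against confluent VEC-null cells by 1.38 on the log2 scale (SE 0.14, 2.60-fold on the signal + 50 scale, adjusted p = 8.35e-05, limma). With confluence it fell by 1.56 in VEC-positive cells (SE 0.14, adjusted p = 1.34e-05, limma) and fell by 2.39 in VEC-null cells (SE 0.14, adjusted p = 7.15e-07, limma), which are 2.96-fold and 5.24-fold lower. The difference between the 2 density responses, VEC-positive minus VEC-null, was 0.82 (SE 0.20, adjusted p = 0.0120, limma), under the size threshold. In sparse cells the log2 difference between the lines was 0.55 (adjusted p = 0.0109, limma), also under it.

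The Hspa1b probe set (100946_at) gave 546 and 632 in confluent VEC-positive cells, against 265 and 137 in confluent VEC-null cells. At low density the probe set gave 1776 and 2072 in the VEC-positive line, against 1555 and 1489 in the VEC-null line. The order of the conditions was that of Hspa1a and again no 2 conditions overlapped, though the copies of confluent VEC-null cells lay far apart, at 201 ± 90.4 (SD, n = 2). Hspa1b rose in confluent VEC-positive against confluent VEC-null cells by 1.39 (SE 0.21, adjusted p = 0.000766, limma). With confluence it fell by 1.63 in VEC-positive cells (SE 0.21, adjusted p = 0.000149, limma) and fell by 2.70 in VEC-null cells (SE 0.21, adjusted p = 4.59e-06, limma). Hspa1b was the only one of the 10 tested probe sets whose density responses differed past both thresholds, by 1.07 (SE 0.29, adjusted p = 0.0222, limma), against 12.2% of all probe sets that passed in that comparison. That call was lost when any of 4 single arrays was left out, with a value of 0.69 without copy 2 of confluent VEC-null cells. In sparse cells the difference between the lines was 0.32 (adjusted p = 0.245, limma).

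With the copies averaged and the 4 cRNA samples as units, a confluent difference between the lines could not be fitted alone. The VEC term over both densities, which averages the confluent and sparse differences, was 0.97 for Hspa1a (adjusted p = 0.195, limma) and 0.86 for Hspa1b (adjusted p = 0.313, limma). With an offset of 200 in place of 50, the confluent changes of Hspa1a and Hspa1b were 0.96 and 0.99, below the size threshold. Their falls with confluence passed in both lines under every alternative that fitted the lines separately, and with averaged copies the density term over both lines passed at -1.98 and -2.16.

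Hspa8 encodes the constitutive cytosolic HSP70, which folds new proteins in unstressed cells. Its probe set (96564_at) gave 4202 and 4109 in confluent VEC-positive cells, against 5909 and 5174 in confluent VEC-null cells. In sparse cells it gave 6805 and 7705 in the VEC-positive line, against 9011 and 9185 in the VEC-null line. The 4 conditions did not overlap. The log2 change with confluence was -0.79 in VEC-positive cells (SE 0.09, adjusted p = 6.15e-05, limma) and -0.71 in VEC-null cells (SE 0.09, adjusted p = 0.000116, limma), both under the size threshold. Between the lines it was -0.41 in confluent cells (adjusted p = 0.00637, limma) and -0.33 in sparse cells (adjusted p = 0.0157, limma), so that Hspa8 and the inducible HSP70 genes had opposite signs in VEC-positive against VEC-null cells.

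Hsph1 encodes HSP110, a nucleotide exchange factor for HSP70 that also holds unfolded proteins. Its promoter window is shown because it held a heat shock element of 3 alternating units, at chr5:149636266-149636565 (GRCm38.p6, minus strand, printed 5′ to 3′ along the gene). Capitals mark heat shock elements.
Hsph1 promoter: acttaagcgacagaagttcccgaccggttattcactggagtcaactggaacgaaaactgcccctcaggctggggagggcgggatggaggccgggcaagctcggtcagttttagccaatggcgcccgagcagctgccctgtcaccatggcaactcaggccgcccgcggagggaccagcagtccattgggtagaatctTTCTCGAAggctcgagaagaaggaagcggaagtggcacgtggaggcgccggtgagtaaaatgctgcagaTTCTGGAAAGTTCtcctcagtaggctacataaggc
The element of 3 units lay at 16 to 28 relative to the annotated start and another of the form TTCNNGAA at -54 to -47. The Hsph1 probe set (98111_at) gave 1720 and 1566 in confluent VEC-positive cells, against 1958 and 2215 in confluent VEC-null cells. Signals in sparse cells were 3116 and 3083 in the VEC-positive line, against 4155 and 4665 in the VEC-null line. All 4 conditions were apart, with sparse cells above confluent cells in both lines. With confluence Hsph1 fell by 1.06 in VEC-null cells (SE 0.10, adjusted p = 1.46e-05, limma), and its change in VEC-positive cells was -0.90 (SE 0.10, adjusted p = 4.92e-05, limma). The 2 responses differed by 0.16 (SE 0.14, adjusted p = 0.403, limma). The call in VEC-null cells was close to the size threshold and was lost without copy 2 of sparse (-0.98) or copy 1 of confluent (-0.97) VEC-null cells. With averaged copies the density term over both lines was -0.98 (adjusted p = 0.0889, limma). Between the lines Hsph1 changed by -0.33 in confluent and -0.50 in sparse cells, and the 822 tested probe sets of its chromosome 5 had medians of -0.33 and -0.36 in the same comparisons. The part of that shift in the Hsph1 values was not tested.

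Dnajb1 encodes HSP40, the J-domain partner that passes substrates to HSP70. Its probe set (96254_at) gave 680 and 697 in confluent VEC-positive cells, against 683 and 675 in confluent VEC-null cells. At low density the probe set gave 1286 and 1185 in the VEC-positive line, against 686 and 836 in the VEC-null line. Sparse VEC-positive cells stood above the rest, and the copies of confluent VEC-positive cells overlapped those of both VEC-null conditions. The change with confluence was -0.80 in VEC-positive cells (SE 0.12, adjusted p = 0.000349, limma) and -0.15 in VEC-null cells (SE 0.12, adjusted p = 0.330, limma), and the responses differed by -0.65 (SE 0.16, adjusted p = 0.0150, limma). None of the Dnajb1 changes reached the size threshold. In sparse cells the lines differed by 0.67 (adjusted p = 0.00141, limma), beside a median of 0.22 over the 720 tested probe sets of its chromosome 8, whose part in the value was not tested.

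Hsp90aa1 encodes the inducible cytosolic HSP90, which matures kinases and steroid receptors. Its bright probe set (95282_at) gave 5219 and 5412 in confluent VEC-positive cells, against 7291 and 6057 in confluent VEC-null cells. The sparse values were 10927 and 9866 in the VEC-positive line, against 13616 and 12297 in the VEC-null line. The conditions did not overlap. The change with confluence was -0.96 in VEC-positive cells (SE 0.10, adjusted p = 3.89e-05, limma) and -0.96 in VEC-null cells (SE 0.10, adjusted p = 3.65e-05, limma). Both were just short of the size threshold, and with arrays scaled to their 75th percentile they were -1.05 and -1.01. The VEC-null value was -1.03 without copy 2 of sparse and -1.09 without copy 1 of confluent VEC-null cells. The responses of the lines differed by -0.0033 (SE 0.14, adjusted p = 0.989, limma). The difference between the lines was -0.32 in confluent and -0.32 in sparse cells. The other Hsp90aa1 probe sets, 161869_i_at on chip A and 105094_at on chip B, gave 36.7 to 94.8 and 5.2 to 23.8, below the filter. Hspb1, which encodes the small heat shock protein HSP27, gave 6.2 to 38.5 with its single probe set (92853_at) and was not above the filter in any condition, so no change of it is given.

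Hspd1 and Hspe1 encode HSP60 and HSP10, the barrel and the lid of the mitochondrial chaperonin, and are transcribed away from each other from 1 shared promoter region on chromosome 1. The Hspe1 window (GRCm38.p6, chr1:55087898-55088197, plus strand) is shown because it overlaps 285 bases of an Hspd1 window on the other strand, so the element in it is in front of Hspe1 and of 1 annotated Hspd1 start. The other annotated Hspd1 start, with its window at chr1:55088194-55088493, has the element downstream of it, and no heat shock element was found in that window. Capitals mark the heat shock element.
Hspe1 promoter: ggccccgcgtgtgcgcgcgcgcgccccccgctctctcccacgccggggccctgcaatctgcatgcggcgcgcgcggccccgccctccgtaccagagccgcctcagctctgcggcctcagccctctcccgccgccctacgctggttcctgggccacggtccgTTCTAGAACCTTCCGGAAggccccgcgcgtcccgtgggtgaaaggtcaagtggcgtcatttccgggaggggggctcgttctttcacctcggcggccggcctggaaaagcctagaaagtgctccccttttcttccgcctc
The element held 4 alternating units at -89 to -72 relative to the Hspe1 start, which is -144 to -127 relative to the Hspd1 start of the overlapping window. The Hspe1 probe set (92829_at) gave 752 and 627 in confluent VEC-positive cells, against 1081 and 1245 in confluent VEC-null cells. Signals in sparse cells were 2356 and 2221 in the VEC-positive line, against 2469 and 2734 in the VEC-null line. All 4 conditions were apart, confluent VEC-positive cells lowest. With confluence Hspe1 fell by 1.66 in VEC-positive cells (SE 0.12, 3.17-fold lower, adjusted p = 2.51e-06, limma) and fell by 1.13 in VEC-null cells (SE 0.12, 2.19-fold lower, adjusted p = 3.11e-05, limma). The difference of the responses was -0.53 (SE 0.16, adjusted p = 0.0346, limma, and 0.0236 to 0.111 under the alternatives), of the opposite sign to that of Hspa1a and Hspa1b. Between the lines the change was -0.71 in confluent cells (SE 0.12, adjusted p = 0.00122, limma) and -0.18 in sparse cells (adjusted p = 0.246, limma).

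The bright Hspd1 probe set (93277_at) gave 4141 and 3508 in confluent VEC-positive cells, against 4587 and 4380 in confluent VEC-null cells. In sparse cells it gave 8401 and 4687 in the VEC-positive line, against 9506 and 9189 in the VEC-null line. The copies of sparse VEC-positive cells were further apart than those of any other condition for this gene, 6544 ± 2627 (SD, n = 2). With confluence Hspd1 fell by 1.05 in VEC-null cells (SE 0.21, adjusted p = 0.00232, limma), and its change in VEC-positive cells was -0.71 (SE 0.21, adjusted p = 0.0187, limma). Without copy 2 of sparse VEC-positive cells the VEC-positive value was -1.13 and passed, and the difference of the responses, 0.34 with all arrays, was -0.08. The VEC-null call was lost with quantile normalization (-0.99). With averaged copies the density term over both lines was -0.88 and did not pass. A dimmer Hspd1 probe set, 161140_r_at, of a design type with relaxed probe rules, gave 127 and 177 (VEC-positive) against 178 and 277 (VEC-null) in confluent cells, and 70.9 and 47.5 (VEC-positive) against 166 and 115 (VEC-null) in sparse cells. It went the other way with density, by 0.89 in VEC-positive cells (adjusted p = 0.0124, limma) and 0.53 in VEC-null cells (adjusted p = 0.0941, limma), so the Hspd1 probe sets disagreed.

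Hspa5 encodes BiP, the HSP70 of the endoplasmic reticulum and a standard readout of stress in that compartment. Its promoter window (GRCm38.p6, chr2:34771840-34772139, plus strand) is shown because it held the endoplasmic reticulum stress element, CCAAT followed after 9 free bases by CCACG, and no heat shock element. Capitals mark the stress element, at -65 to -47 relative to the start.
Hspa5 promoter: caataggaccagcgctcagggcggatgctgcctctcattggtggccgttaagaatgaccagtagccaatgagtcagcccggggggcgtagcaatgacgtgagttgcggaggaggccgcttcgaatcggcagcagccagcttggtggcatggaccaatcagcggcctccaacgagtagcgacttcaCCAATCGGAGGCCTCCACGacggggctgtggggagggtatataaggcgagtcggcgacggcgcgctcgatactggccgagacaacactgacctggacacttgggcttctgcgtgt
The Hspa5 probe set (101955_at) gave 3959 and 4041 in confluent VEC-positive cells, against 4282 and 3814 in confluent VEC-null cells. The sparse values were 7365 and 6924 in the VEC-positive line, against 12457 and 11972 in the VEC-null line. Confluent cells of the lines overlapped, while sparse VEC-null cells stood far above sparse VEC-positive cells. With confluence Hspa5 fell by 1.58 in VEC-null cells (SE 0.08, adjusted p = 3.05e-07, limma), and its change in VEC-positive cells was -0.83 (SE 0.08, adjusted p = 2.25e-05, limma). The responses differed by 0.76 (SE 0.11, adjusted p = 0.00108, limma), under the size threshold. The lines differed by -0.77 in sparse cells (SE 0.08, adjusted p = 7.07e-05, limma) and by -0.01 in confluent cells (adjusted p = 0.908, limma).

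**Figure D2:**
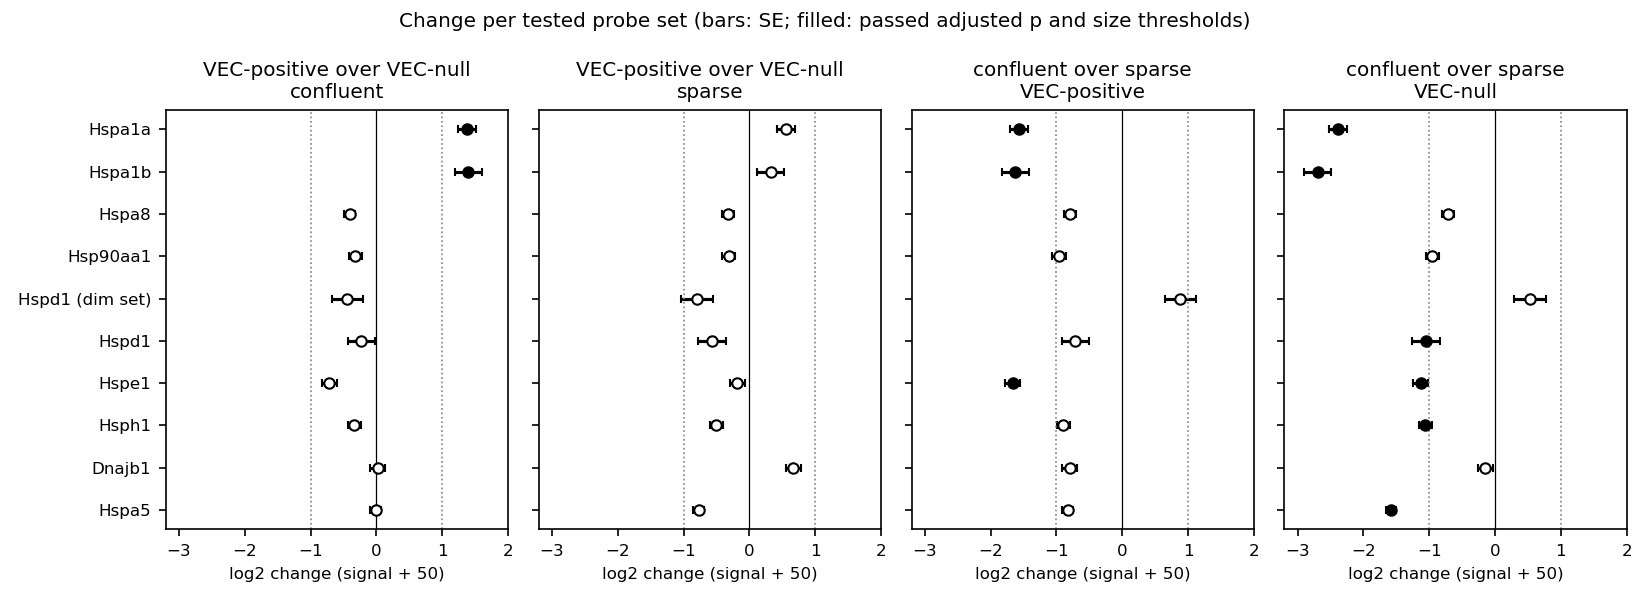
Log2 change of signal + 50 (horizontal axes) for each of the 10 tested probe sets, with SE bars from limma, in VEC-positive over VEC-null cells (confluent, then sparse) and in confluent over sparse cells (VEC-positive, then VEC-null); filled points passed the adjusted p and size thresholds, drawn as dotted lines at -1 and 1. Hspa1a and Hspa1b lie at 1.38 and 1.39 in confluent cells of the lines, and 9 of 10 points lie below 0 in each density comparison.

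Several measures of the cultures moved with density beside these genes. The summed signal of the endothelial marker probe sets ran over the copies of confluent cells from 62768 to 63922 (VEC-positive) and 62963 to 64257 (VEC-null), against 30470 to 33023 (VEC-positive) and 18034 to 18334 (VEC-null) in sparse cells. The summed smooth muscle and fibroblast markers were 2483 to 2612 and 1658 to 1765 in confluent cells of the VEC-positive and VEC-null lines, against 9540 to 11189 and 1935 to 2012 in sparse cells. Most of the sparse VEC-positive value came from S100a4, and 5 of the 6 genes of that list were bright enough to be tested. The embryonic stem and epithelial markers, with 3 of 6 genes tested, summed to 793 to 949 (VEC-positive) and 860 to 866 (VEC-null) in confluent cells, against 1534 to 1659 (VEC-positive) and 688 to 828 (VEC-null) in sparse cells. The bright probe set of the keratin gene Krt19 averaged 905 in sparse VEC-positive cells and 3.9 to 5.6 in the other 3 conditions. The blood markers, with 1 of 4 genes tested (Cd68), summed to 315 to 327, 788 to 1111, 381 to 419 and 285 to 326 in confluent VEC-positive, confluent VEC-null, sparse VEC-positive and sparse VEC-null cells. The part of these shifts in the chaperone values was not tested, and in bulk RNA fewer cells with a transcript and less of it per cell cannot be told apart.

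Promoter windows of 8 of the genes were read, 11 windows in all. A heat shock element of the form GAANNTTC was found in 7 of these windows (6 genes) and TTCNNGAA in 4 (3 genes), both strands being read, against 7.86% and 8.52% of all 32851 promoter windows of the same length. The 3 alternating units, which contain both shorter forms, were found in 4 windows, of Hsph1, Hspd1 and Hspe1, against 0.603% of all windows. These windows are not separate sites. The 2 Hsph1 windows overlap and hold the same elements, and an Hspd1 window shares its element with that of Hspe1. The window counts are therefore not read as an excess over the shares. The endoplasmic reticulum stress element was found in 1 window, of Hspa5, against 0.119% of all windows. Hspb1 held GAANNTTC at 2 places, and its transcript was not above the filter in any condition. Dnajb1 held neither kind of element in its 2 windows. CCAAT, which is also the beginning of the stress element, was found in 7 of the 11 windows and in 37.4% of all windows.

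**Figure D3:**
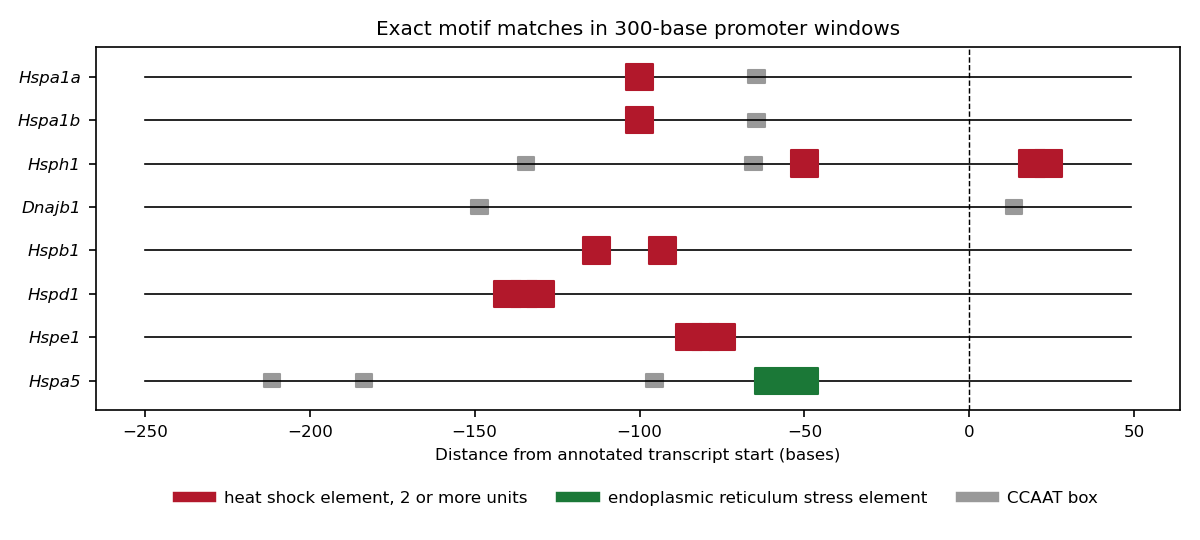
Positions of exact motif matches in the 300-base promoter windows of 8 genes (1 window per gene), as distance in bases from the annotated transcript start (dashed line); red is a heat shock element of 2 or more units, green the endoplasmic reticulum stress element, which begins with a CCAAT, and grey other CCAAT boxes. The 2 inducible HSP70 genes share 1 layout, and Hspe1 and Hspd1 show the same element from opposite strands.

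The changes of chaperone genes with and without a heat shock element were set side by side, with no test between them. Of the genes described here and 101 further chaperone and stress genes listed for comparison, 79 were tested and had a promoter window, and 22 of these held a 2-unit element. With confluence in VEC-null cells 8 of the 22 fell and 0 rose, with a median log2 change of -0.39 over their probe sets, against 15 lower and 2 higher of 57 without one (median -0.44). The 8 include Hspa1a, Hspa1b, Hspd1, Hspe1 and Hsph1, whose falls are already given above. In VEC-positive cells 5 of the 22 fell and 0 rose (median -0.26), against 8 lower and 1 higher of the 57 (median -0.31). Hspa1a, Hspa1b and Hspe1 are among the 5. Of the 6 genes with the endoplasmic reticulum stress element, Hspa5, Hsp90b1, Pdia6 and Creld2 fell with confluence in VEC-null cells, and Canx and Dnajc3 did not pass, against 19 lower and 2 higher of the 73 genes without the element. In VEC-positive cells 1 of the 6 fell and 0 rose, against 12 lower and 1 higher of the 73. Over all probe sets, 7.41% passed as lower in VEC-null and 7.22% in VEC-positive cells. That is an unlike measure, since the counts here are of genes with any probe set that passed.

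Among the further chaperone genes, of which 93 had a probe set and 86 were tested, falls with confluence also outnumbered rises. In VEC-positive cells 11 of the 86 fell and 2 rose, and of their 134 probe sets 2 passed higher and 16 lower, against calls for 15.4% of all probe sets, with a median log2 change of -0.29. A gene was counted as risen or fallen if any of its probe sets passed. The named ones were Pdia6 (-2.02), a disulfide isomerase of the endoplasmic reticulum, Hspa4l (-1.94), an HSP110 relative, the TRiC chaperonin subunits Cct7 (-1.44) and Cct3 (-1.34), the HSP90 cochaperone Fkbp4 (-1.37), the J-domain protein Dnajb6 (-1.30), the HSP70 exchange factor Bag1 (-1.27) and the oxidase Ero1a (-1.21). In VEC-null cells 24 of the 86 fell and 3 rose, and of the 134 probe sets 3 passed higher and 28 lower, against calls for 16.5% of all, with a median of -0.42. The largest were Fkbp4 (-2.34), Ero1a (-1.98), the mitochondrial HSP70 Hspa9 (-1.79), Cct6a (-1.67), the HSP70 to HSP90 adaptor Stip1 (-1.59), and Hyou1 (-1.52) and Fkbp2 (-1.51) of the endoplasmic reticulum. Hspa12b, a distant HSP70 relative known from endothelium, was the largest rise (1.64). A total of 7 genes, Cct3, Cct4, Cct7, Ero1a, Fkbp4, Pdia6 and Sdf2l1, fell in both lines, 63.6% of the 11 and 29.2% of the 24. For this overlap, too, the value over all probe sets was not counted. Probe sets of 1 gene did not always go together: a further Cct4 probe set had 0.26 and a further Cct3 probe set 0.20 in VEC-positive cells. In the same cells further probe sets of Dnajb6 (-0.16), Hspa4l (-0.56) and Ero1a (-0.58 and -0.85) did not pass.

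By group, endoplasmic reticulum chaperones had 2 lower genes of 17 tested in VEC-positive cells and 7 of 17 in VEC-null cells, and none rose by limma in either. Over all probe sets, 7.22% passed as lower in VEC-positive and 7.41% in VEC-null cells. The group counts are of genes with any probe set that passed, an unlike measure, and most groups are small, so no group is ranked against these shares. TRiC and prefoldin had 3 and 5 lower of 11, and the regulators of endoplasmic reticulum stress had 1 and 4 lower of 9, with Xbp1 (-1.04), Herpud1 (-1.02) and Ddit3 (-1.01) among the 4. J-domain proteins of the cytosol and mitochondria had 1 lower and 1 higher gene of 13 in each line. Other HSP70 and HSP110 genes had 1 and 2 lower of 8, with 1 higher in VEC-null cells, HSP90 cochaperones 1 and 2 of 7, HSP70 exchange and quality control factors 2 and 1 of 10, small heat shock proteins 0 and 1 of 4, and mitochondrial proteases and import factors 0 and 1 of 6, with 1 higher in each line (Clpx, 1.08 and 1.06). The Clpx rises came from a dim probe set. Its brighter one had 0.46 in VEC-positive cells and did not pass. In VEC-null cells the brighter one averaged 1265 in confluent and 1349 in sparse cells. Of the heat shock factors only Hsf2 was tested, with changes of 0.58 in VEC-positive cells (adjusted p = 0.0381, limma) and -0.29 in VEC-null cells (adjusted p = 0.266, limma). Whether a group's response differed between the lines was tested gene by gene only, and 7 of the 86 genes passed, with 4 positive and 3 negative calls among the 134 probe sets, against calls for 12.2% of all: Pdia4 (1.08), Pdia3 (1.06), Cct6a (1.06) and Dnajc3 (1.01) with a positive difference, and Hspa12b (-1.10), Pdia6 (-1.01) and Ppib (-1.01) with a negative one. The other Pdia6 probe sets had -0.15 and -0.83, and the other Dnajc3 probe sets -0.01 to 0.28.

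**Figure D4:**
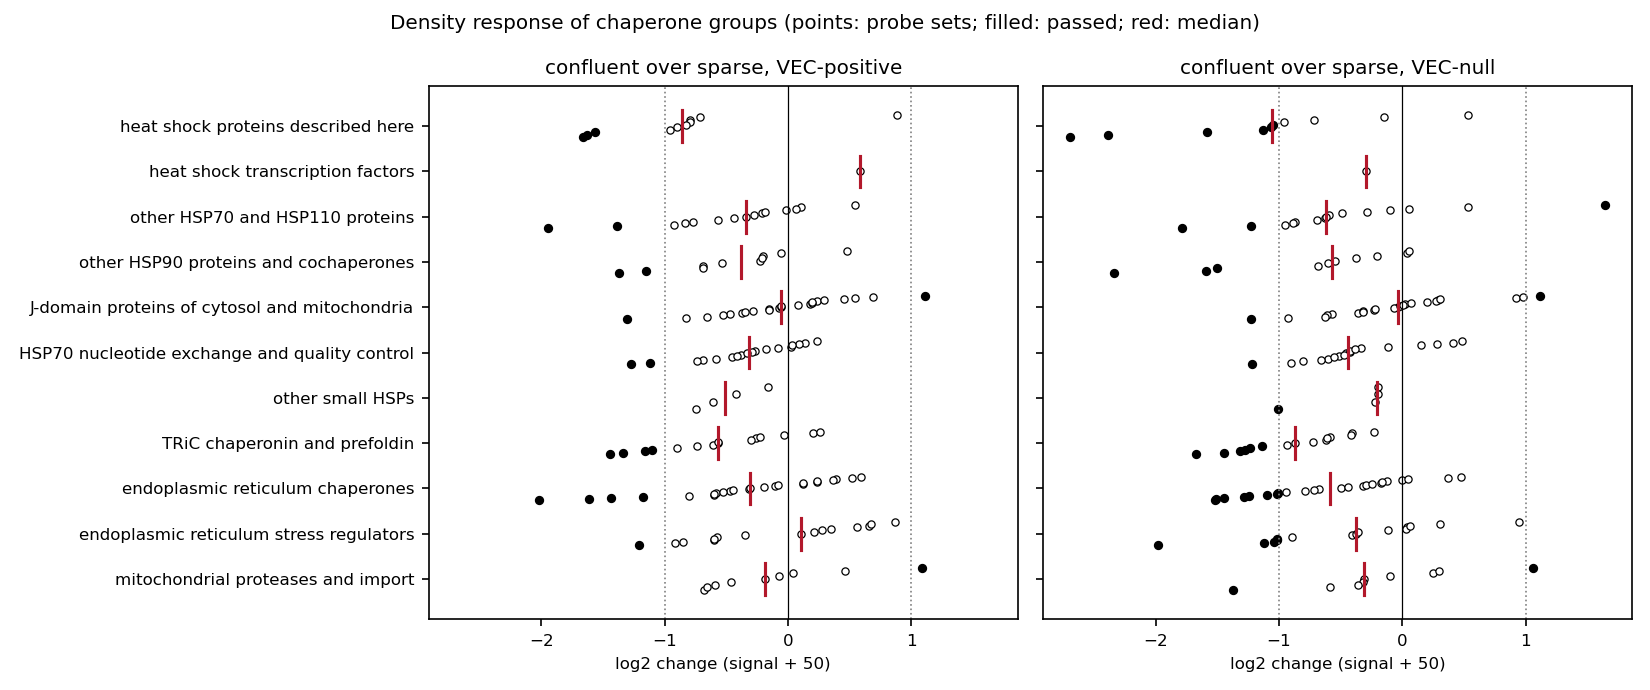
Log2 change of signal + 50 in confluent over sparse cells (horizontal axes, shared) of the VEC-positive line (left) and the VEC-null line (right) for the heat shock proteins described here (top) and 10 groups of further chaperone genes; each point is a tested probe set, filled where it passed, and red marks the group median. Medians of the heat shock proteins lie at -0.86 and -1.06, and those of TRiC and prefoldin at -0.57 and -0.87.

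In the comparison of the lines, 4 of the 86 further genes rose and 1 fell in confluent VEC-positive against VEC-null cells, and of the 134 probe sets 4 passed higher and 1 lower, against calls for 7.93% of all. Cryab, which encodes the small heat shock protein alpha B-crystallin, averaged 498 in confluent VEC-positive cells, against 117 in confluent VEC-null cells, and rose by 1.72 (adjusted p = 4.53e-05, limma). Dnajc3 (1.52) and Hsp90b1 (1.03), both of the endoplasmic reticulum, and the J-domain protein Dnaja4 (1.40) were the other rises. Dnajb6 fell by 1 probe set (-1.11), and its brighter one had -0.60 and did not pass. The other 3 Dnajc3 probe sets had 0.05, 0.11 and 0.63 and did not pass. In sparse cells 4 rose and 7 fell, and of the 134 probe sets 4 passed higher and 8 lower, against calls for 9.7% of all. Cryab (2.24) and Dnaja4 (1.96) rose there too, with 1 probe set of Dnajb9 (1.24, against 0.63 for its other one) and 1 of Tomm20 (1.20, against -0.32 for its other one). The falls were led by 1 probe set of Ero1a (-1.34), then Dnajc2 (-1.32), Cct6a (-1.31) and Fkbp2 (-1.23). The other Ero1a probe sets, which were brighter, had -0.30 and -0.27 and did not pass. The median over the 134 probe sets was -0.01 in confluent and -0.20 in sparse cells.

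Across the 8 arrays of chip A, which are pairs of copies of 4 cRNA samples that share the same scaling, Hspa1a and Hspa1b correlated at 0.982 and Hspa8 and Hsp90aa1 at 0.970 (Pearson's r of log2 signals, as a description). The r of Hspa1b with Hspa8 was 0.649 and that with Dnajb1 was 0.685, and Dnajb1 was at 0.342 with Hspa5. The dim Hspd1 probe set was at -0.275 with the bright one. For Hspb1 no likeness was sought. For 3 of the tested genes, the 3 probe sets of other genes with the most alike pattern over these arrays were Adk (0.988), Oxct1 (0.987) and Ap2m1 (0.985) for Hspa1b, Tcea1, Cmtr2 (both 0.995) and Sema3e (0.994) for Hspa5, and Pik3c2a (0.960), Ranbp1 (0.957) and Actr3 (0.956) for Hspd1. Adk had mean signals of 853 and 316 in confluent cells, and 4211 and 2530 in sparse cells, of the VEC-positive and the VEC-null line. Sema3e had 134 and 132 in confluent and 368 and 1202 in sparse cells of the VEC-positive and VEC-null lines.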

How the data were processed

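RNA of 4 cRNA samples was measured on 16 Affymetrix arrays, 8 per chip type. The deposited values are linear intensity values, MAS5 signals of the probe sets; the authors brought each array to a target of 500, per the labels' design text and the submitters' processing notes. A normalization on the median over all samples is also named there, but no centring per probe set was seen in the values. Detection calls were not used here. The sources used here give no MAS5 version. All columns belonged to this series (0 others).

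Symbols came from the GEO platform annotation, checked through Entrez identifiers against RefSeq genes of GRCm38.p6 (0 changed). Probe sets with several symbols (574) or none (2845) were not named, and 66 control probe sets per chip were left out. Signals were tested as log2(signal + 50), which understates changes of dim probe sets, so fold changes are on that scale. A probe set was kept if at least 1 condition mean lay above the median of its chip (chip A at a signal of 159, chip B at 235), leaving 7006 and 7240. limma 3.58.1 in R 4.3.3 was fitted per chip over all 4 conditions (eBayes with trend, 4 residual degrees of freedom), with Benjamini-Hochberg adjustment over both chips. The script was tested on simulated data. Copies of a condition were compared, and 0 pairs held identical values. The difference of the density responses is the log2 change of VEC-positive cells minus that of VEC-null cells.

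All members are reported. Of the further chaperone genes, those that passed were named, up to 8 per comparison by size, and any named beyond that were picked after their values were seen. Promoter windows came from RefSeq and motifs were matched exactly. Offsets, filters, normalizations, the variance model, a replicate block, averaged copies and leaving out each array were the alternatives. The members and lists were chosen with earlier results of these data known. Python 3.11.15 was used for the motifs and figures.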

Additional observations from a re-analysis of the deposited data

Results flagged for a closer look

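The density response, confluent over sparse on the log2 scale, differed between VEC-positive and VEC-null cells by its own test (adjusted p below 0.05 in limma) for 5 tested heat shock genes and for 7 further chaperone genes that also passed the size threshold. Both thresholds were passed by 1 of the 10 heat shock probe sets and, of the 134 further ones, by 4 with a positive and 3 with a negative difference, against 12.2% of all probe sets. The share of all probe sets by the adjusted p alone was not counted here, so the 5 genes are not set against it. The difference, VEC-positive minus VEC-null, was 0.82 for Hspa1a, 1.07 for Hspa1b and 0.76 for Hspa5, and -0.53 for Hspe1 and -0.65 for Dnajb1. Among the further genes it was 1.06 for Cct6a, 1.01 for Dnajc3, 1.06 for Pdia3 and 1.08 for Pdia4, and -1.10 for Hspa12b, -1.01 for Pdia6 and -1.01 for Ppib. Over the alternatives the adjusted p was 0.0236 to 0.111 for Hspe1 and 0.00108 to 0.0687 for Hspa1b, so both could miss the threshold. These tests rest on 1 cRNA sample per condition.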

How the results depend on the processing

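Of the 50 changes of the tested heat shock probe sets under up to 25 alternatives (1235 values), 1195 kept direction and side of the threshold. Among the 299 for called changes, 15 were lost and 0 reversed. The number of heat shock probe sets called in VEC-positive against VEC-null cells became 0 (confluent) with an offset of 200 and 1 (sparse) with an offset of 16. With averaged copies, where 1 VEC term covers both densities and 1 density term both lines, the VEC count was 0. For the difference of the density responses it became 0 with an offset of 200 and without a filter. Leaving out 1 array each gave 2 to 2 (confluent lines), 0 to 0 (sparse lines), 3 to 5 (density, VEC-positive; 5 without copy 2 of sparse VEC-positive cells), 6 to 6 (density, VEC-null) and 0 to 1 (difference). Over all probe sets, an offset of 200 left 590, 689, 1305, 1444 and 1017 calls in that order, a filter at the 75th percentile 691 and 913 between the lines, and averaged copies 291 for VEC and 1400 for density; the leave-one-out ranges were 1121 to 1173, 1349 to 1497, 2161 to 2273, 2306 to 2414 and 1650 to 1825. Uncalled changes that reversed were the response differences of Hsp90aa1 (0.000315 with offset 200, 0.27 with quantile normalization, -0.14 to 0.13 leaving out 1 array), Hspa8 (0.051 with quantile normalization, -0.18 to 0.014 leaving out 1 array) and Hspd1 93277_at (-0.078 to 0.76 leaving out 1 array), and the confluent line difference of Hspa5 (0.012 with quantile normalization, -0.097 to 0.068 leaving out 1 array). In the density comparison of VEC-null cells, Hsph1 and Hsp90aa1 could change sides of the size threshold when 1 array was left out. The genes called there were thus not always the same. The causes were not tested. With the copy number as a replicate block the heat shock counts were 2, 0, 3, 6 and 1, and all calls 1131, 1383, 2192, 2357 and 1742. The copy numbers do not pair the arrays, since deviations of same-numbered copies correlated at -0.06 to 0.08, with 0 of 12 pairs of conditions above 0.1. The block changed no call of a heat shock probe set, and the calls over all probe sets were 1129, 1382, 2190, 2352 and 1745 without it. With 2 hybridisations of 1 sample per condition, differences between cultures were not measured.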

Other observations

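Some heat shock response genes did not fall at confluence. Dnaja1, a J-domain partner of HSP70 whose promoter window held GAANNTTC, had log2 changes with confluence of 0.69 in VEC-positive cells (adjusted p = 0.000310, limma) and 0.92 in VEC-null cells (adjusted p = 3.89e-05, limma), both under the size threshold. The 3 probe sets of Bag3, an HSP70 exchange factor whose window held the same element, had -0.08, -0.38 and -0.18 in VEC-positive cells (adjusted p = 0.734, 0.0390 and 0.138, limma) and 0.48, 0.41 and 0.28 in VEC-null cells (adjusted p = 0.0575, 0.0278 and 0.0316, limma). Both genes were picked out after their values were seen.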
